A study of Rattus norvegicus with 12 samples.

Results

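This section describes 155 genes of the 32883 in the count table whose RNA level was lower with an siRNA against NRF2 than with a control siRNA in both smooth muscle cells (PASMC) and endothelial cells (PAEC) of the pulmonary artery. PASMC contract to narrow the vessel, and PAEC form its inner lining. They were primary wild-type rat cells, each type grown in its own medium, and had received either the control siRNA (siControl) or the NRF2 siRNA (siNRF2). There were 4 groups of 3 libraries, described by the submitters as biological replicates. No source used here ties them to separate animals or cultures or gives the dose or duration of the siRNA, and p-values measure only the spread between these libraries, which may be technical. As these are bulk samples, a lower level can mean fewer cells with the RNA or less RNA per cell, which cannot be told apart.

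NRF2 is a transcription factor that the adaptor protein KEAP1 holds at a low level in unstressed cells by marking it for breakdown. Under oxidative or electrophilic stress it accumulates, pairs with small MAF proteins and binds antioxidant response elements near genes of glutathione and thioredoxin metabolism, NADPH supply, heme breakdown and detoxification. Small interfering RNAs guide the breakdown of mRNAs with a matching sequence and can also alter further RNAs. The list of 155 genes therefore holds whatever fell with this siRNA in both cell types and is not a list of NRF2 targets.

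The genes were chosen by their values. A gene was taken if it lay on chromosomes 1 to 20 and had a mean of at least 2 CPM (counts scaled to a common library total, 1e+06) in both siControl groups. In each cell type, its mean siNRF2 CPM had to be at most 0.67 times its mean siControl CPM, and its highest siNRF2 library had to lie below its lowest siControl library. The first condition alone left 10559 genes, here called the expressed genes. The rule left out 5 genes by identifier and the stretch of chromosome 19 with gene starts from 15 to 15.4 Mb, which together removed 5 genes that had met the values. Because the siRNA difference chose the genes, it is given below as a description and no test of it is offered.

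The count table names genes by Ensembl identifier only, and the gene table used here (assembly GRCr8) matched 0 of them to a symbol. The genes are therefore described by position, structure and level, their functions are not analysed here, and neither is the level of the siRNA target nor of cell type markers. Positions come from the count table, and its genome build is not stated in the sources used here. Each gene runs from the start of its first to the end of its last exon. Columns of the table carry abbreviated names, and their letters were taken to stand for cell type and siRNA. No label spells this out, and each direction given here depends on it. The label for cell type reads PASMC for all 12 libraries, while the titles separate PASMC from PAEC, and the titles were used. Libraries held 27008812 to 34317763 counts.

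Among the expressed genes, 838 met the conditions on ratio and overlap in PASMC, or 7.94%, and 911 met them in PAEC, or 8.63%. Both sets of conditions were met by 160 genes, which are 1.52% of the expressed genes, 19.1% of the PASMC list and 17.6% of the PAEC list. The 155 genes are these without the 5 that the rule left out. Taken alone, the absence of overlap with lower siNRF2 libraries held for 29.1% of the expressed genes in PASMC and 25.7% in PAEC. The cell types share no library. In the PASMC libraries the 155 genes together took 2.35%, 2.43% and 2.33% of all counts in siControl and 1.24%, 1.26% and 1.28% in siNRF2. In PAEC they took 1.19%, 1.25% and 1.315% in siControl and 0.644%, 0.722% and 0.630% in siNRF2. The summed level was thus lower in each siNRF2 library than in each siControl library of its cell type, which the choice of the genes fixes.

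The falls were mostly moderate. The median log2 ratio of siNRF2 to siControl was -0.81 in PASMC, with quartiles of -1.03 and -0.68, and -1.01 in PAEC, with quartiles of -1.34 and -0.74. Over the expressed genes the medians were -0.02 and -0.05. The ratio was at most 0.5 for 43 of the 155 genes in PASMC, for 79 in PAEC and for 28 in both, while 1.19% of the expressed genes had such a ratio in PASMC and 2.96% in PAEC. A ratio of at most 0.25 was reached by 2 genes in PASMC and 10 in PAEC, and the like share of the expressed genes was not counted. The lowest log2 ratio of the 155 genes was -2.10 in PASMC and -4.28 in PAEC. Over the expressed genes it was -4.70 and -4.28.

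**Figure D1:**
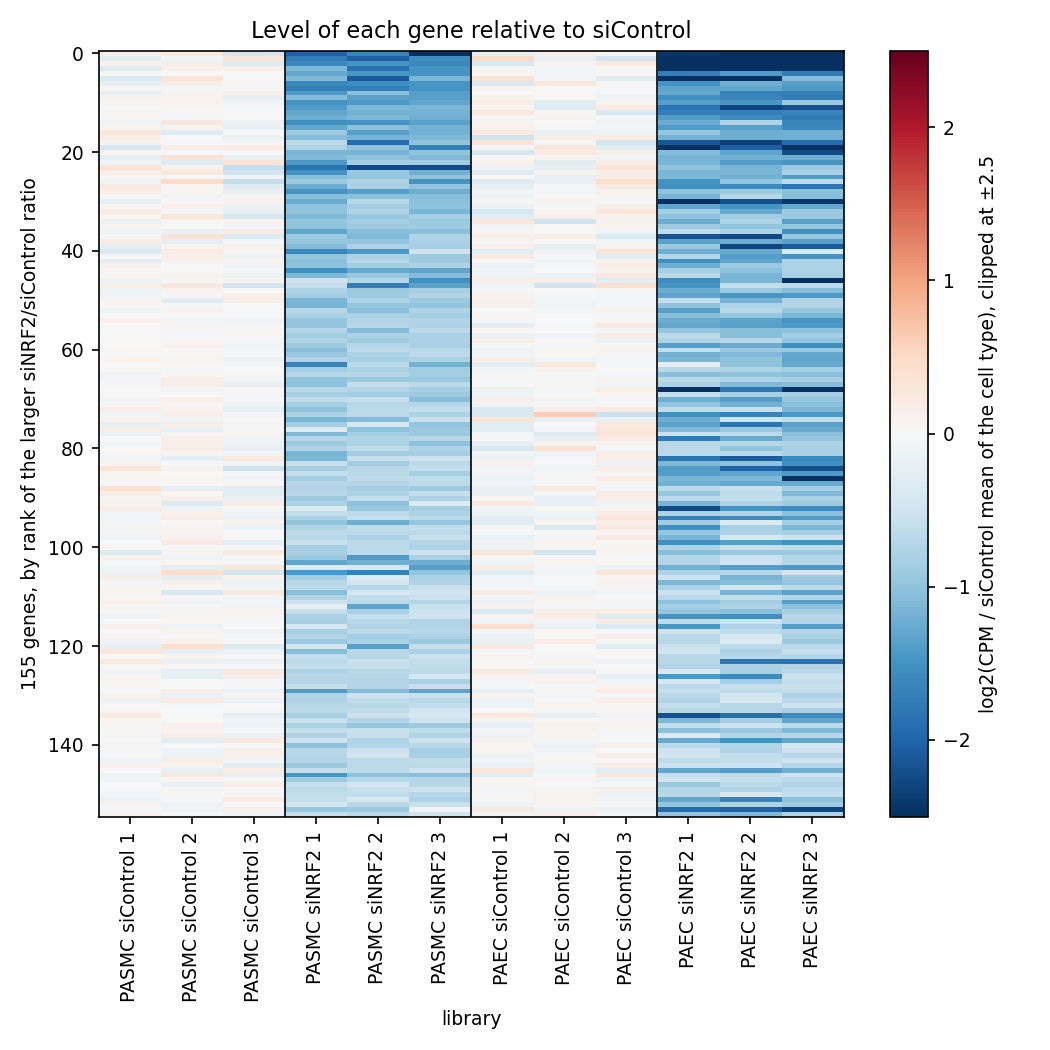
Level of the 155 genes (rows, ordered by the larger of their ratios of siNRF2 to siControl) in the 12 libraries (columns), as log2 of the CPM over the siControl mean of the cell type. The siNRF2 columns are blue in both cell types, as the rule demands, and the deepest blue lies in PAEC, where 10 genes had a ratio of at most 0.25 against 2 in PASMC. Over the expressed genes a ratio of at most 0.5 was also more frequent in PAEC (2.96%) than in PASMC (1.19%), and their share at 0.25 was not counted.

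The plot of levels by library shows how far single libraries moved. Relative to the siControl mean of the cell type, the median level of the 155 genes was 0.552, 0.581 and 0.574 in the PASMC siNRF2 libraries and 0.485, 0.498 and 0.492 in the PAEC siNRF2 libraries. In siControl it was 1.01, 1.02 and 0.972 in PASMC and 0.964, 0.991 and 1.03 in PAEC. The 3 siNRF2 libraries of a cell type were thus close to each other. For 76 of the 155 genes the lowest PASMC siNRF2 library was replicate 1, and for 68 the lowest PAEC siNRF2 library was replicate 3. The like shares of the expressed genes were not counted, so this is not shown to be particular to the 155 genes.

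The gap between the groups was narrow for some genes and wide for others. The lowest siControl library exceeded the highest siNRF2 library by a median of 1.48 times in PASMC and 1.56 times in PAEC. It was at least 1.5 times for 71 genes in PASMC and 91 in PAEC, and under 1.1 times for 9 and 4. All 155 genes passed the filter on low counts. With edgeR's quasi-likelihood test over 14584 genes, 141 of the 155 had an adjusted p under 0.05 in PASMC, where 14.6% of all genes tested were called as falling, and 149 in PAEC, where 13.2% were. Both calls held for 136 of them, and since the rule used these same values, nothing is read from these counts.

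The ratios in the cell types were compared as a description, since the rule used both. The ratio was lower in PAEC for 98 genes and lower in PASMC for 57. It was lower by more than 1.5 times in PAEC for 30 genes and in PASMC for 3. The like counts were not made over the expressed genes. Among those, a ratio of at most 0.5 was also more frequent in PAEC (2.96%) than in PASMC (1.19%). A deeper fall in PAEC is thus not shown to be particular to the 155 genes. Across the 155 genes the log2 ratios correlated between the cell types at 0.42 (Pearson) and 0.22 (Spearman). These are shaped by the limit that the rule sets on each axis.

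**Figure D2:**
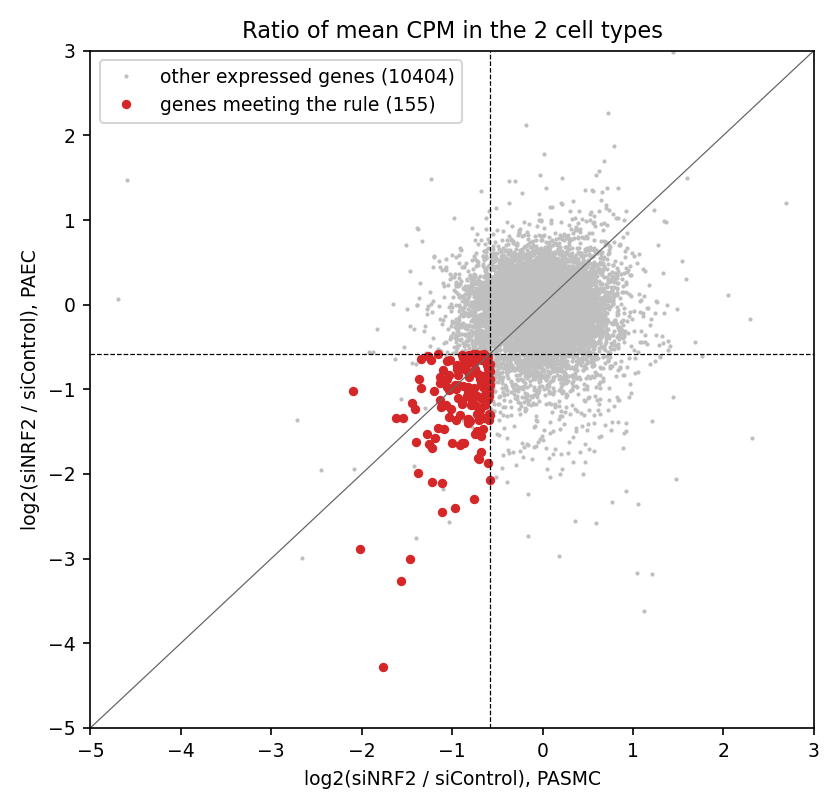
Log2 ratio of mean siNRF2 to mean siControl CPM in PASMC (x axis) and PAEC (y axis) for the 10559 expressed genes. Dashed lines mark the limit of 0.67, the diagonal marks equal ratios, and red points are the 155 genes. More red points lie below the diagonal (98, lower in PAEC) than above it (57), and the like counts of grey points were not made. Grey points in the same corner overlapped between siRNAs in at least 1 cell type or were left out by the rule.

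The largest falls in both cell types are described next, taking the 10 genes whose larger ratio was smallest. The gene with the largest fall by this order was ENSRNOG00000026607 (chromosome 13, 79378733 to 79388498, plus strand, 3 merged exons). Its PASMC siControl libraries held 11.7, 12.8 and 7.70 CPM and its siNRF2 libraries 2.66, 3.40 and 1.90 CPM. In PAEC the siControl libraries held 11.4, 14.9 and 13.7 CPM and the siNRF2 libraries 2.48, 1.61 and 1.31 CPM. The groups were far apart in both cell types, with 24.7% of the siControl mean remaining in PASMC and 13.5% in PAEC.

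The next gene, ENSRNOG00000029668 (chromosome 10, 71047310 to 71053191, plus strand), is short, with 380 bases in 3 exons. It held 6.63, 7.43 and 9.89 CPM in PASMC siControl and 2.37, 1.95 and 2.73 CPM in siNRF2. In PAEC it held 6.39, 4.06 and 3.28 CPM in siControl and 0.0952, 0.379 and 0.233 CPM in siNRF2. The PAEC siNRF2 values rest on 3, 12 and 8 counts, and 5.15% of the siControl mean remained there, against 29.4% in PASMC. Of the 155 genes, 3 had fewer than 10 counts in some library and 50 fewer than 100.

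A gene on the minus strand of chromosome 16 (37457135 to 37495758, 7 exons) was more abundant in PASMC. It held 37.9, 39.8 and 28.4 CPM in PASMC siControl and 11.5, 12.8 and 11.5 CPM in siNRF2. In PAEC it went from 6.60, 8.99 and 10.2 CPM to 0.635, 0.820 and 1.22 CPM. It kept 33.8% of its siControl level in PASMC and 10.4% in PAEC, so the PAEC siNRF2 libraries held the lowest levels of the 4 groups.

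The most abundant of the 10 lies on the plus strand of chromosome 5 (157282669 to 157285328, 849 bases in 5 exons). Its PASMC siControl libraries held 2956, 2910.4 and 2976 CPM and its siNRF2 libraries 1208, 1074 and 1061 CPM. In PAEC it held 942, 869 and 936 CPM in siControl and 277, 342 and 274 CPM in siNRF2. The lowest library held 8726 counts. Relative to the mean, replicates were closest in PASMC siControl (2947 ± 33.6 CPM, mean ± SD, n = 3) and furthest apart in PAEC siNRF2 (298 ± 38.5 CPM). Of the siControl level, 37.8% remained in PASMC and 32.5% in PAEC.

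The 2-exon gene on the plus strand of chromosome 1 at 7252349 to 7259035 fell from 171, 162 and 159.7 to 50.3, 50.4 and 59.4 CPM in PASMC. In PAEC it fell from 47.8, 45.3 and 44.0 to 18.3, 18.7 and 17.2 CPM. It kept 32.5% in PASMC and 39.5% in PAEC. The 8-exon gene at 21525421 to 21537863 on the same chromosome kept 34.4% in PASMC (30.5 ± 4.04 to 10.5 ± 0.483 CPM, mean ± SD, n = 3) and 39.4% in PAEC (10.1 ± 2.09 to 3.98 ± 0.417 CPM). In both of these the smaller fraction remained in PASMC, against the majority of the 155 genes.

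Of the other genes in this group of 10, a pair had higher levels in PAEC. The chromosome 9 gene at 88918433 to 88921001 held 11.7 ± 1.48 and 4.85 ± 0.749 CPM in PASMC under siControl and siNRF2 (mean ± SD, n = 3), and 23.5 ± 0.747 and 8.11 ± 1.46 CPM in PAEC. The chromosome 13 gene at 35436532 to 35442222 held 18.2 ± 2.07 and 7.61 ± 0.870 CPM in PASMC and 35.2 ± 2.18 and 11.3 ± 0.888 CPM in PAEC. The chromosome 5 gene at 39329423 to 39370900 was near the floor of 2 CPM, with 2.51 ± 0.595 and 0.962 ± 0.328 CPM in PASMC and 2.23 ± 0.501 and 0.561 ± 0.424 CPM in PAEC. Its highest PAEC siNRF2 library, at 1.05 CPM, stood apart from the other 2, at 0.286 and 0.347 CPM, and lay below each siControl library, as the rule demands. The remaining gene, on chromosome 10, is described with its neighbours.

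**Figure D3:**
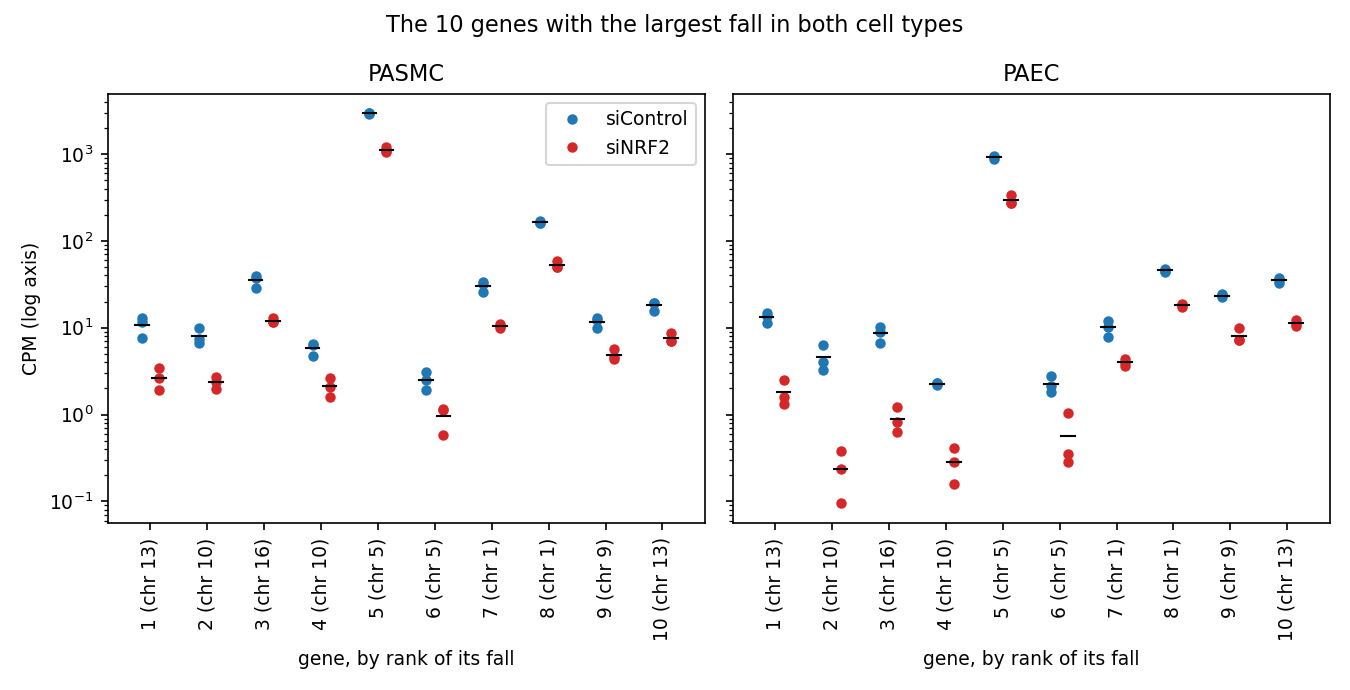
CPM on a log axis in each library (points) and the mean of 3 libraries (bars) for the 10 genes whose larger ratio was smallest, in PASMC (left) and PAEC (right), numbered in the order of the fall. Blue and red points do not overlap in any gene, as the rule demands, and the second gene reaches the lowest level, at 0.0952 CPM in a PAEC siNRF2 library.

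At the other end, the list closes just inside the limit of 0.67. The last 3 genes inside had larger ratios of 0.66952, 0.66974 and 0.66978, and the first 3 genes outside that met the rest of the rule had 0.67093, 0.67117 and 0.67154. The genes just outside went from 98.7 to 66.3 CPM, 31.6 to 21.2 CPM and 144 to 82.7 CPM in PASMC and had PAEC ratios of 0.427, 0.471 and 0.672. The limit thus cuts a continuous range of values.

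Levels of different genes were compared per kilobase of exon. The median over the 155 genes was 14.2 CPM per kb in PASMC siControl and 9.51 in PAEC siControl, against 15.6 and 11.5 CPM per kb over the expressed genes. The 5 genes with the highest level per kb, as the mean over the siControl libraries of both cell types, included the abundant chromosome 5 gene above, at 3472 CPM per kb in PASMC and 1079 in PAEC. The highest of all was a gene of 382 bases in 3 exons on the minus strand of chromosome 19 (11307967 to 11308740), at 14305 CPM per kb in PASMC and 6664 in PAEC. Its PASMC libraries held 5244, 5395 and 5755 CPM in siControl and 2775, 2344 and 2786 CPM in siNRF2. In PAEC it held 2106, 2660.1 and 2871 CPM in siControl and 1392, 1998 and 1415 CPM in siNRF2. The PAEC groups were separated by a small margin, between the lowest siControl library at 2106 CPM and siNRF2 replicate 2 at 1998 CPM.

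Like the chromosome 5 and chromosome 19 genes, the other genes of high level per kb were more abundant in PASMC. The chromosome 14 gene at 18743685 to 18745457 is among them and is described below with its neighbour. A 3-exon gene on chromosome 10 (69412017 to 69413870, plus strand) held 851, 900.5 and 835 CPM in PASMC siControl and 434, 524 and 508 CPM in siNRF2. In PAEC it held 101, 114 and 133 CPM in siControl and 48.1, 45.3 and 42.7 CPM in siNRF2, so 56.7% remained in PASMC and 39.1% in PAEC. A gene on chromosome 1 (211248098 to 211265282) kept 62.1% in PASMC (681 ± 87.1 to 422 ± 15.8 CPM, mean ± SD, n = 3) and 65.9% in PAEC (295 ± 27.1 to 194 ± 24.7 CPM).

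The difference between the cell types was then tested, as the contrast of PAEC with PASMC averaged over both siRNAs. This contrast is orthogonal to the siRNA contrasts that the rule used. It shares with the rule the floor of 2 CPM and the spread between replicates. It also includes the siNRF2 libraries, so a fall that differed in size between the cell types enters it. ENSRNOG00000029668 had means of 7.98 CPM in PASMC and 4.58 CPM in PAEC under siControl, and 2.35 and 0.236 CPM under siNRF2. Its averaged log2 difference, PAEC minus PASMC, was -1.61. The siControl libraries alone were not contrasted. Of the 155 genes, edgeR's quasi-likelihood test called 56 as higher in PAEC and 71 as higher in PASMC, together 81.9%, at an adjusted p under 0.05 over 14584 genes. Over all genes tested 30.7% were called higher in PAEC and 32.4% higher in PASMC, together 63.1%, and over the expressed genes 34.4% and 33.1%, together 67.5%. When libraries were scaled by their totals, without TMM factors, the test called 39 of the 155 as higher in PAEC and 92 as higher in PASMC. The median log2 difference over all genes tested was -0.030 with TMM and -0.469 with totals, so the split between the directions depends on the scaling.

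With TMM scaling, the size of this difference was also larger than over the expressed genes. Its median absolute log2 value was 0.74 for the 155 genes and 0.37 for the expressed genes, and 38.1% of the 155 were called and differed by at least 2-fold, against 15.9% of the expressed genes. Genes that met the rule in PAEC alone were close to the 155 in this respect, with 35.3% of 751 genes and a median of 0.68. Genes that met it in PASMC alone were at 16.5% of 678 genes and a median of 0.37, as low as the expressed genes. The rule may favour genes with little spread between replicates, which may also be called more readily, and this was not tested. Among the 2582 expressed genes whose siRNA groups did not overlap in either cell type, in any direction, 75.1% were called, against 81.9% of the 155. No test was made of these shares. The sizes were not computed with library totals, where the median log2 difference over the expressed genes was -0.438, against 0.002 with TMM.

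The genes furthest apart between the cell types are described next, and the rule demands that they fell in both. The gene with the largest excess in PASMC lies on chromosome 13 (27449934 to 27463010, plus strand, 8 exons) and held 520.1, 517 and 473 CPM in PASMC siControl and 280.3, 324 and 325 CPM in siNRF2. In PAEC it held 5.31, 5.68 and 6.50 CPM in siControl and 2.63, 2.68 and 0.816 CPM in siNRF2. Its log2 difference, PAEC minus PASMC, was -6.40 (SE 0.18, edgeR adjusted p = 7.8e-11). As the rule demands, the siRNA groups did not overlap in either cell type. The fraction remaining was 61.5% in PASMC and 35.0% in PAEC, where siNRF2 replicate 3 was lower than the other siNRF2 libraries.

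A 4-exon gene on chromosome 11 (77815181 to 77830416, plus strand) held 1679, 1988 and 1584 CPM in PASMC siControl and 1016, 1167 and 1104 CPM in siNRF2. In PAEC it held 53.7, 58.1 and 77.8 CPM and then 19.5, 21.3 and 24.0 CPM. Its log2 difference between the cell types was -4.79 (SE 0.11, edgeR adjusted p = 1.1e-14), and the fraction remaining was 62.6% in PASMC and 34.2% in PAEC.

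In the other direction, a 28-exon gene on chromosome 3 (48291055 to 48372672, minus strand) held 28.4, 26.2 and 37.9 CPM in PAEC siControl and 15.4, 13.8 and 16.3 CPM in siNRF2. In PASMC it held 2.78, 2.31 and 1.46 CPM and then 0.616, 0.454 and 0.461 CPM, with 14 to 19 counts in the siNRF2 libraries. Its log2 difference was 4.80 (SE 0.17, edgeR adjusted p = 6.3e-15), and 23.4% remained in PASMC, the smallest fraction of the 155 there, against 49.3% in PAEC. A 2-exon gene on chromosome 9 (55243255 to 55256340, minus strand) held 283, 306 and 329 CPM in PAEC siControl and 171, 151 and 176 CPM in siNRF2. In PASMC it held 33.7, 33.1 and 32.0 CPM and then 11.4, 13.7 and 13.2 CPM. Its log2 difference was 3.90 (SE 0.068, edgeR adjusted p = 2.7e-19). The third of this kind, on chromosome 1 (145781928 to 145870912), had a log2 difference of 3.68 (SE 0.17, edgeR adjusted p = 4.7e-13) and kept 59.5% in PASMC and 64.7% in PAEC.

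The siRNA ratios were also set beside the direction of the cell type difference. A lower ratio in PAEC in itself moves this difference towards PASMC. The 56 genes higher in PAEC had median log2 ratios of -0.76 in PASMC and -1.03 in PAEC, and the 71 higher in PASMC had -0.81 and -1.0. The lower ratio was in PAEC for 38 of the 56 and for 47 of the 71. ENSRNOG00000026607 was not called in either direction, with a log2 difference of 0.31 (SE 0.19, edgeR adjusted p = 0.16), or -0.12 with library totals.

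**Figure D4:**
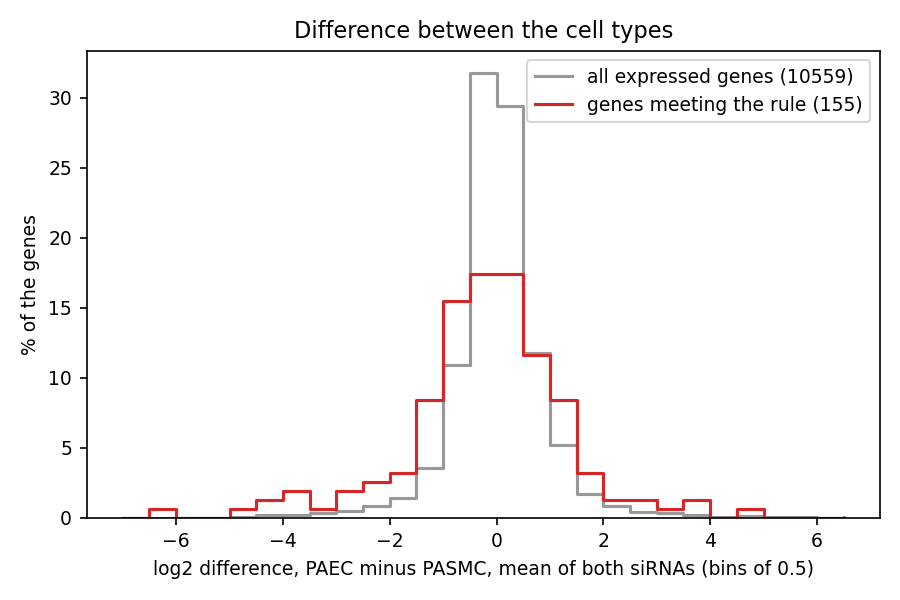
Share of genes (y axis, %) by the log2 difference of PAEC minus PASMC averaged over both siRNAs (x axis, bins of 0.5), for the 155 genes (red) and the 10559 expressed genes (grey). Libraries were scaled by TMM. The red line is broader at this scaling, with a median absolute difference of 0.74 against 0.37, and reaches from -6.40 to 4.80.

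Features that the rule did not use were compared with the same features of the expressed genes. The 155 genes had a median of 7 merged exons, against 9, and 49 of them (31.6%) had at most 4 exons, against 20.8%. Genes that met the rule in PASMC alone or in PAEC alone also had few exons, with 27.4% and 28.5% at or below 4. Merged exons summed to a median of 2731 bases, against 2420. The strands were nearly even, with 81 genes (52.3%) on the plus strand, against 50.3%. Exons of 3 of the 155 genes overlapped another gene on the same strand and those of 5 overlapped one on the opposite strand. No source used here says whether counting used strand, and reads of these overlaps may be shared.

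More of the genes lay where gene density was low. The median count of further genes centred within 500 kb was 14 for the 155 and 19 for the expressed genes, and 93 of the 155 (60.0%) had at most 15 such neighbours, against 40.2%. Genes that met the rule in PASMC alone were at 66.8% and those that met it in PAEC alone at 31.8%. Over the expressed genes the siRNA ratio moved with density in PASMC, with a median log2 ratio of -0.17 at densities of at most 15 and 0.15 at 27 or more, and in PAEC the medians were -0.002 and -0.11. With each library's trend with density removed as an offset in the edgeR fit, the median log2 fold change of the 155 genes was -0.74 in PASMC, against -0.77 without the offset. In PAEC it was -0.97 against -0.96. Since the rule chose the genes by these falls, a part played by density was not tested.

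**Figure D5:**
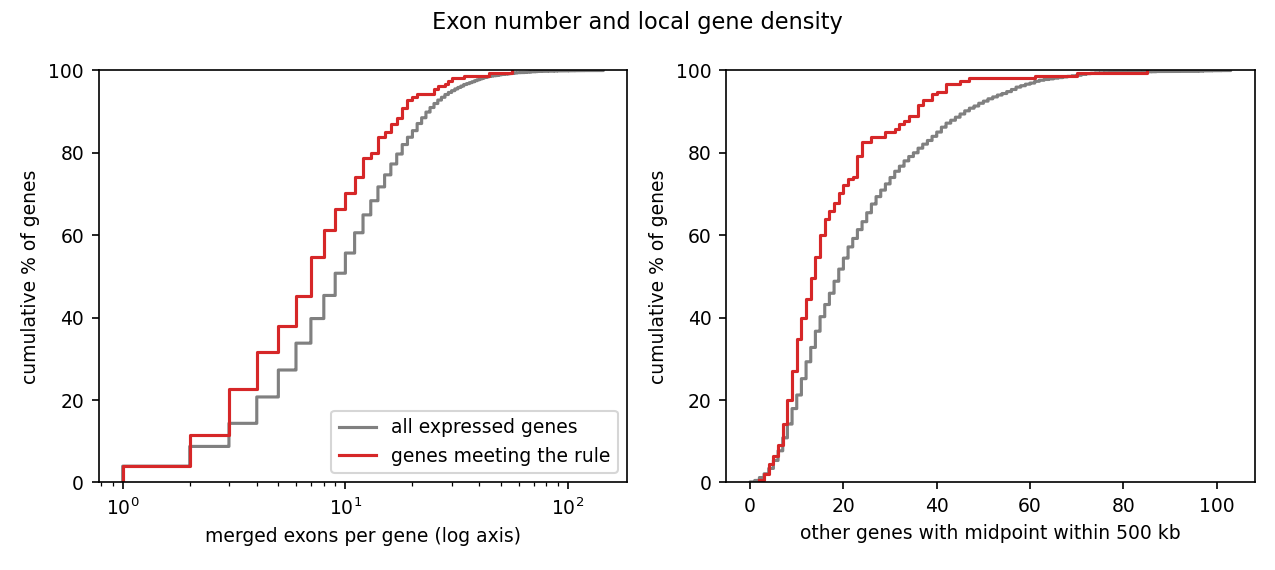
Cumulative share of genes (y axis, %) by the number of merged exons (left, log axis) and by the number of further genes centred within 500 kb (right), for the 155 genes (red) and the 10559 expressed genes (grey). Both red curves lie to the left, with medians of 7 against 9 exons and 14 against 19 neighbouring genes.

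The genes were spread over 19 of the 20 chromosomes. Chromosome 13 held 13 of them, which are 3.88% of its 335 expressed genes, the highest share, and 8.39% of the 155. It held 3.98% of the genes that met the rule in PASMC alone, 4.26% of those that met it in PAEC alone and 3.17% of the expressed genes. Chromosome 1 held the largest number, 23 of 1338 expressed genes. Chromosome 12 held 1 of 377 and chromosome 18 none of 278. No test was made of these counts.

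Some of the 155 genes were neighbours of each other, and the like count for other expressed genes was not made. Within 100 kb there were 7 pairs among 11 genes. On chromosome 10, 3 genes on the plus strand lay between 70964396 and 71053191, one of them ENSRNOG00000029668. The gene at 71008709 to 71010863 held 46.7, 47.8 and 45.0 CPM in PASMC siControl and 17.5, 21.4 and 20.9 CPM in siNRF2, and in PAEC 8.30, 6.57 and 9.32 CPM and then 2.25, 1.64 and 1.75 CPM. The gene at 70964396 to 71014423, whose span covers it on the same strand, held 5.82 ± 1.01 and 2.11 ± 0.534 CPM in PASMC (mean ± SD, n = 3) and 2.27 ± 0.0795 and 0.283 ± 0.125 CPM in PAEC. In each of the 3 genes a smaller fraction remained in PAEC than in PASMC, at 12.5%, 23.3% and 5.15% against 36.3%, 42.9% and 29.4% from left to right. The 12.5% rests on 5, 9 and 14 counts in the PAEC siNRF2 libraries and the 5.15% on 3, 12 and 8 counts. Exons of the spanning gene do not overlap those of the gene at 71008709 in the table.

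On chromosome 14 a pair on the minus strand lay 10293 bases apart. The gene at 18731378 to 18733391 held 113, 105 and 109 CPM in PASMC siControl and 49.7, 49.0 and 54.7 CPM in siNRF2, and in PAEC 3.02, 4.76 and 4.55 CPM and then 1.94, 1.64 and 0.874 CPM. Its neighbour at 18743685 to 18745457 held 557, 524 and 569 CPM in PASMC siControl and 262, 272 and 262 CPM in siNRF2, and in PAEC 199, 212 and 221 CPM and then 94.4, 128 and 101 CPM. The first kept 46.9% in PASMC and 36.1% in PAEC, and the second 48.3% and 51.1%. The difference between the cell types was much larger for the first, at -4.48 on the log2 scale (SE 0.13, edgeR adjusted p = 3.4e-15), than for the second, at -0.90 (SE 0.064, edgeR adjusted p = 3e-10).

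The chromosome 13 gene that was most in excess in PASMC had a neighbour 95881 bases away (27312498 to 27354052, same strand) whose log2 difference was 0.39 (SE 0.13, edgeR adjusted p = 0.015), a call that was lost with library totals, at -0.05 (adjusted p = 0.75). This neighbour held 16.7 ± 1.97 and 10.1 ± 2.26 CPM in PASMC and 21.1 ± 3.76 and 7.50 ± 1.38 CPM in PAEC (siControl and siNRF2, mean ± SD, n = 3). The pair kept almost equal fractions, 60.3% and 61.5% in PASMC and 35.6% and 35.0% in PAEC. On chromosome 9 a pair 43414 bases apart (47134034 to 47182170 and 47225585 to 47258503, plus strand) also kept like fractions, 62.1% and 63.4% in PASMC and 66.2% and 66.4% in PAEC. On chromosome 5 the abundant gene at 157282669 had a neighbour on the opposite strand, 13765 bases away, which kept 64.5% in PASMC and 44.0% in PAEC and so was further from it. The rule bounds all these fractions, and the likeness of neighbours was not compared with that of genes further apart.

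The nearest expressed gene outside the list was taken on each side of the 155 genes, where one lay within 100 kb, which gave 166 flanking genes. As genes that met the rule in both cell types were in the list, the flanking genes were compared with the 10404 expressed genes outside it. Their median log2 ratio was -0.04 in PASMC, against -0.01, and -0.10 in PAEC, against -0.04. The ratio was below 1 for 54.8% of them in PASMC, against 51.2%, and for 60.2% in PAEC, against 55.2%. The conditions on ratio and overlap were met by 14 of the 166 (8.43%) in PASMC, against 6.56%, and by 16 (9.64%) in PAEC, against 7.27%. These differences were not tested.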

How the data were processed

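The deposited counts are whole numbers per gene in 12 RNA-seq libraries and were not normalized, and the table also gives the merged exon bases of each gene, per the file headers. Trizol extraction and a directional library kit are named in the labels' protocols. The submitters' processing notes name HISAT2 (2.0.5), featureCounts (2.0.3) and DESeq2 (1.32.0) without roles or settings. No source used here states the genome build, the strand setting or the handling of multiply mapped reads, so counts of near-identical gene copies are uncertain.

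CPM is the count over the column total, times 1e+06. The genes and lists were chosen with earlier results of these data known. For tests, filterByExpr of edgeR 4.0.16 (R 4.3.3) kept 14584 genes. Libraries were scaled by TMM, and a model with 1 coefficient per group over the 12 libraries, leaving 8 residual degrees of freedom, was fitted by glmQLFit (robust) and tested by glmQLFTest. Calls were made at an adjusted p (Benjamini-Hochberg) under 0.05. The script was tested on simulated data. DESeq2 1.42.0 was an alternative.

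Genes named are the 10 with the smallest larger ratio, the 5 with the highest siControl CPM per kb, the 3 on either side of the limit and the 3 most in excess in each cell type. Genes within 100 kb of each other were added after their values were seen. At most 2 identifiers are printed. The 17 gene lists by symbol and the promoter motifs were not run, as 0 identifiers matched a symbol.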

Additional observations from a re-analysis of the deposited data

How the results depend on the processing

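The number of genes meeting the rule was 28 with a ratio limit of 0.5 in place of 0.67. It was 120 with a floor of 5 CPM, 185 with overlap allowed and between 143 and 177 without single libraries, and 138 to 150 of the 155 remained in the latter. The rule on TMM-scaled CPM gave 119 genes, 117 of them among the 155. The number of the 155 called between cell types was 123 to 127 without single libraries, 127 without and 126 with a replicate block shared by both cell types, a setting added after seeing the data. Replicate numbers did not pair the libraries, since the deviations of same-numbered libraries correlated at -0.075 to 0.021 in 12 pairs. The replicate block within cell type called 4286 genes in PASMC and 3362 in PAEC, against 4479 and 3607. These 2 counts were 3134 to 4716 and 2721 to 3705 without single libraries. Of the 20 named genes, 18 were called between cell types in each setting run, and 353 of 360 alternative values kept their direction and side of the threshold. The log2 difference of ENSRNOG00000026607 was -0.12 with library totals, and that of the chromosome 5 gene at 39329423, -0.03 in the main fit, was -0.46 to 0.11 without single libraries, with both of these uncalled. The NRF2 target list and the promoter motifs were not run, as no identifier matched a symbol. Depth limits precision for the 50 of the 155 genes with fewer than 100 counts in some library.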

Other observations

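Outside the chromosomes that the rule admits, 9 genes on the X chromosome met its conditions on level, ratio and overlap in both cell types. They are not among the 155 genes.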
